A study of Homo sapiens with 36 samples.

Results

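The 10 genes OPRK1, ACKR3, COLEC12, CBLN2, SLITRK3, GRB10, CAMK2N1, NCOA7, HOXC13 and PEG3, out of the 20046 genes named on the array, encode receptors, secreted and adhesion proteins, signalling adaptors and nuclear regulators whose values were lower with androgen. They were chosen by that measured difference in control cells, so it is their definition and is described here without a test. Comparisons of control cells between lines or vectors use the same samples, so the choice may bear on them too. Expression was measured on Illumina Human version 4 HT12 bead arrays in c42b cells, a castration-resistant prostate cancer line derived from LNCaP, and in LNCaP cells, an androgen-sensitive prostate cancer line. In each line the labels name 4 vectors, which were a short hairpin against GABPA (knockdown, KD), a non-targeting hairpin (NT), a pLVX vector for GABPA (OE) and the empty pLVX vector (EV). GABPA is the part of the transcription factor GABP, of the ETS family, that contacts DNA. All cells were held for 48 h in charcoal-stripped serum, which is poor in steroids, and then received the synthetic androgen R1881 at 1 nM or ethanol as vehicle, for a time that the sources used here do not give. There were 32 samples in 16 groups of 2 (2 lines, 4 vectors, with R1881 or vehicle). Each vector defined 1 stable derivative of its line, so an effect of the vector and a difference between the derived populations cannot be told apart. The study calls the overexpression vector inducible by doxycycline, and the labels name no doxycycline for these samples. The labels do not say that replicates came from separate cultures, so the p-values rest on a spread between samples that may be technical.

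Androgen acts through a nuclear receptor that binds DNA once it holds its ligand. It raises secretory genes of the prostate such as KLK3, and it lowers another set of genes, which come back up when the hormone is withdrawn. Receptors and growth-factor adaptors in that lowered set can change what signals a prostate cancer cell receives while androgen is absent.

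All values below are log2 intensities after quantile normalization, given for the first and the second replicate of a group, and differences are on the same scale. All 10 genes lay above background in their mean over the samples, where background is 7.80, the 95th percentile of the probes for olfactory receptors. In cells of 1 line, fewer cells that make a transcript and less transcript per cell cannot be told apart. The 6 measured markers of luminal prostate epithelium were above background in both lines, while the 2 basal and 3 endothelial markers were not, and 2 of 5 fibroblast and 2 of 4 leukocyte markers lay just above it. The GABPA probe read 7.18 to 7.77 in c42b KD cells against 7.78 to 8.11 in c42b NT cells, a difference of -0.46 (SE 0.108, adjusted p = 0.0215). In LNCaP it read 7.62 to 7.82 in KD cells against 7.88 to 8.31 in NT cells, a difference of -0.38 (SE 0.108, adjusted p = 0.101). Cells with the overexpression vector read 8.05 to 8.33 against 8.05 to 8.34 in EV cells of c42b, and 7.75 to 8.24 against 7.92 to 8.28 in EV cells of LNCaP, with differences of 0.03 (adjusted p = 0.978) and -0.05 (adjusted p = 0.956). Since this probe showed no called rise, those cells are named OE-labelled. All c42b KD values of the probe were under the background of 7.80 and the other values were near it, which limits it as a measure of GABPA. The study reports that it checked knockdown and overexpression by western blot and PCR.

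**Figure D1:**
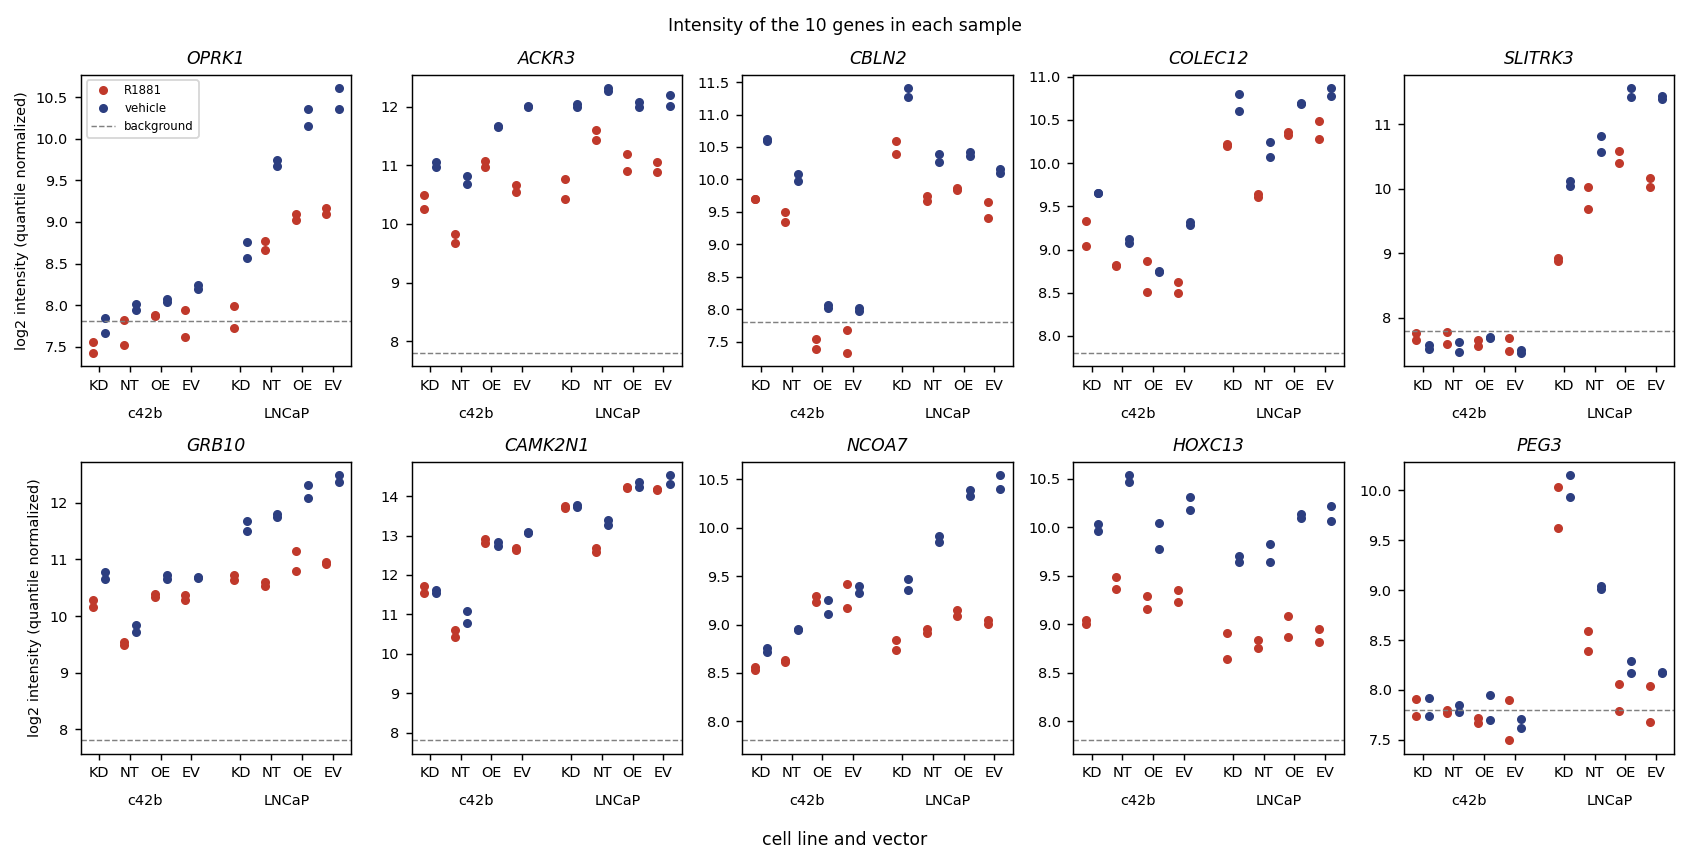
Log2 intensity (vertical axis) of each gene in each of the 32 samples, by cell line and vector, with 1 point per sample and 2 points per group. Red points are R1881, blue points are vehicle, OE stands for OE-labelled, and the dashed line is the background of 7.80. SLITRK3 lies under the line in all 16 c42b samples and above it in all 16 LNCaP samples.

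OPRK1 encodes the kappa opioid receptor, an inhibitory G-protein-coupled receptor for dynorphin peptides. In LNCaP KD cells it read 7.72 and 7.99 with R1881 against 8.76 and 8.57 with vehicle, and in LNCaP OE-labelled cells 9.10 and 9.02 against 10.35 and 10.16. The R1881 samples lay below the vehicle samples in both, with differences of -0.81 (SE 0.132, adjusted p = 0.000329) and -1.20 (SE 0.132, adjusted p = 4.16e-07). LNCaP control cells, whose values chose the gene, gave 8.66 and 8.77 with R1881 against 9.74 and 9.68 with vehicle for NT, and 9.17 and 9.10 against 10.36 and 10.61 for EV. The KD samples were low in both arms, and OPRK1 averaged 8.26 in KD cells and 9.21 in NT cells, a 1.93-fold fall on knockdown (log2 difference -0.95, SE 0.0931, adjusted p = 3.81e-08).
In c42b the gene was near background throughout. It read 7.43 and 7.56 with R1881 against 7.66 and 7.84 with vehicle in KD cells, and 7.88 and 7.87 against 8.03 and 8.07 in OE-labelled cells. In both, the R1881 samples lay below the vehicle samples by less than the test called (-0.26, SE 0.132, adjusted p = 0.667 and -0.18, SE 0.132, adjusted p = 0.838), and 5 of the 16 c42b samples were under background. The c42b control cells gave 7.82 and 7.52 with R1881 against 8.02 and 7.95 with vehicle for NT, and 7.61 and 7.94 against 8.25 and 8.19 for EV. Control cells averaged 7.91 in c42b and 9.51 in LNCaP, and the 8 c42b samples did not overlap the 8 LNCaP samples (log2 difference -1.60, SE 0.0658, adjusted p = 2.63e-18). Knockdown in c42b gave -0.20 (SE 0.0931, adjusted p = 0.512), and the difference between the lines in the effect of knockdown was 0.75 (SE 0.132, adjusted p = 0.00489), with 3 of the 4 c42b KD samples under background. The group means ran between 10.49 ± 0.179 (SD, n = 2) in LNCaP EV vehicle cells and 7.49 ± 0.0961 in c42b KD cells with R1881, and 6 of the 15 steps in their order were between groups whose samples overlapped.

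ACKR3, the atypical chemokine receptor that binds CXCL12 and recruits arrestin without a G protein, was well above background in both lines. With R1881 it read 10.26 and 10.49 against 10.98 and 11.06 with vehicle in c42b KD cells, and 11.06 and 10.96 against 11.66 and 11.67 in c42b OE-labelled cells. The OE-labelled samples lay above the KD samples of the same arm, and both populations fell, with differences of -0.65 (SE 0.127, adjusted p = 0.00400) and -0.65 (SE 0.127, adjusted p = 0.00340). In LNCaP it read 10.76 and 10.43 with R1881 against 12.04 and 12.00 with vehicle for KD, and 10.90 and 11.18 against 11.99 and 12.07 for OE-labelled cells. R1881 samples were lower in both, with differences of -1.42 (SE 0.127, adjusted p = 5.75e-09) and -0.99 (SE 0.127, adjusted p = 6.53e-06). The c42b calls were the less secure ones. Without replicate 1 of the R1881 arm or replicate 2 of the vehicle arm the KD call was lost (adjusted p = 0.144 and 0.0695), and without replicate 2 of the R1881 arm the OE-labelled call was lost (adjusted p = 0.0727).
The control cells that chose ACKR3 read 9.68 and 9.82 with R1881 against 10.81 and 10.69 with vehicle for c42b NT, and 10.55 and 10.67 against 12.00 and 12.00 for c42b EV. LNCaP gave 11.60 and 11.43 against 12.27 and 12.32 for NT, and 11.05 and 10.88 against 12.19 and 12.00 for EV. Knockdown moved ACKR3 in opposite directions in the 2 lines. It averaged 10.70 in c42b KD cells and 10.25 in c42b NT cells (0.45, SE 0.0895, adjusted p = 0.00443), against 11.31 in LNCaP KD cells and 11.91 in LNCaP NT cells (-0.60, SE 0.0895, adjusted p = 8.68e-05), and the difference between these effects was 1.05 (SE 0.127, adjusted p = 1.79e-05). The c42b rise was lost without replicate 2 of the KD R1881 arm (adjusted p = 0.0507). Within the arms the KD and NT cells of c42b differed by 0.62 with R1881 and 0.27 with vehicle, and the difference in LNCaP was -0.92 with R1881 and -0.28 with vehicle. Control cells averaged 10.78 in c42b and 11.72 in LNCaP (-0.94, SE 0.0633, adjusted p = 4.87e-13), with overlapping samples. ACKR3 was also 2.08-fold higher in c42b EV than in c42b NT cells (1.05, SE 0.0895, adjusted p = 9.98e-11). Its highest group mean was 12.30 ± 0.0327 (SD, n = 2) in LNCaP NT vehicle cells and its lowest 9.75 ± 0.0998 in c42b NT cells with R1881, and 8 of the 15 steps between them joined overlapping groups.

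COLEC12 is a scavenger receptor of the collectin family that takes up oxidized lipoprotein and binds sugars on microbes. It read 9.04 and 9.33 with R1881 against 9.66 and 9.66 with vehicle in c42b KD cells, a difference of -0.48 (SE 0.123, adjusted p = 0.0597) just short of the threshold. LNCaP KD cells gave 10.23 and 10.20 against 10.80 and 10.60, a difference of -0.49 (SE 0.123, adjusted p = 0.04995) that met it only at the margin. The R1881 samples were the lower ones in both lines. The LNCaP call was lost without any 1 of its 4 samples (adjusted p up to 0.466), under median centring (adjusted p = 0.0822) and with the replicate block (adjusted p = 0.0552), whereas the c42b difference passed without replicate 2 of the R1881 arm (adjusted p = 0.0290). OE-labelled cells did not pass in either line. They read 8.51 and 8.87 with R1881 against 8.76 and 8.74 with vehicle in c42b (-0.06, SE 0.123, adjusted p = 0.964), where the arms overlapped, and 10.32 and 10.36 against 10.69 and 10.68 in LNCaP (-0.35, SE 0.123, adjusted p = 0.345).
In c42b controls, COLEC12 was 8.80 and 8.82 with R1881 against 9.08 and 9.12 with vehicle for NT, and 8.50 and 8.62 against 9.29 and 9.32 for EV. LNCaP controls gave 9.64 and 9.61 against 10.07 and 10.24 for NT, and 10.49 and 10.28 against 10.87 and 10.78 for EV. It rose on knockdown in both lines, averaging 9.42 in c42b KD cells and 8.96 in c42b NT cells (0.46, SE 0.0869, adjusted p = 0.00194), and 10.46 in LNCaP KD cells and 9.89 in LNCaP NT cells (0.56, SE 0.0869, adjusted p = 0.000134). The difference between these effects was -0.10 with a 95% interval of -0.35 to 0.15. Control cells of c42b lay wholly below those of LNCaP, at means of 8.94 and 10.25 (-1.30, SE 0.0615, adjusted p = 8.59e-17), and LNCaP EV cells lay wholly above LNCaP NT cells (0.71, SE 0.0869, adjusted p = 1.81e-07). Its group means spanned 10.82 ± 0.0684 (SD, n = 2) in LNCaP EV vehicle cells and 8.56 ± 0.0855 in c42b EV cells with R1881, with 8 of 15 steps between overlapping groups.

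CBLN2 encodes a secreted cerebellin that joins neurexins to receptors across synapses. It was lower with R1881 in every one of the 4 tested populations, and no arm overlapped its vehicle arm. Readings were 9.70 and 9.69 with R1881 against 10.62 and 10.60 with vehicle in c42b KD cells (-0.91, SE 0.121, adjusted p = 1.34e-05), and 10.59 and 10.39 against 11.41 and 11.26 in LNCaP KD cells (-0.85, SE 0.121, adjusted p = 4.59e-05). These falls of 1.88-fold and 1.80-fold differed by -0.06, with a 95% interval of -0.41 to 0.29. OE-labelled cells gave 7.39 and 7.54 against 8.06 and 8.02 in c42b (-0.58, SE 0.121, adjusted p = 0.00880), and 9.84 and 9.86 against 10.42 and 10.36 in LNCaP (-0.54, SE 0.121, adjusted p = 0.0186). Both c42b R1881 samples were under background there, so the fall is at least 1.18-fold on the measured scale, from the vehicle mean of 8.04 and the background of 7.80. Neither OE-labelled call was secure. The c42b one was lost under median centring (adjusted p = 0.0618) and without replicate 1 of the R1881 arm or either vehicle replicate (adjusted p up to 0.182), and the LNCaP one without any 1 of its 4 samples (adjusted p up to 0.171) or when LNCaP was fitted alone (adjusted p = 0.0508).
The pLVX cells of c42b stood apart from the hairpin cells. NT cells of c42b read 9.35 and 9.50 with R1881 against 9.97 and 10.08 with vehicle, and EV cells of c42b 7.67 and 7.32 against 7.97 and 8.01. CBLN2 thus averaged 7.74 in c42b EV cells and 9.72 in c42b NT cells (-1.98, SE 0.0856, adjusted p = 9.42e-18). With the 2 EV samples that were under background set to it, the difference is at least 1.83, or 3.55-fold. In LNCaP the same comparison was not called (-0.19, SE 0.0856, adjusted p = 0.185). The difference between the lines in this gap was not tested. LNCaP controls read 9.74 and 9.66 against 10.27 and 10.39 for NT, and 9.41 and 9.65 against 10.16 and 10.11 for EV. On knockdown CBLN2 rose in both lines, to 10.15 in c42b KD cells against 9.72 in c42b NT cells (0.43, SE 0.0856, adjusted p = 0.00436), and to 10.91 in LNCaP KD cells against 10.02 in LNCaP NT cells (0.90, SE 0.0856, adjusted p = 2.36e-08). These effects differed by -0.47 (SE 0.121, adjusted p = 0.163). Control cells averaged 8.73 in c42b and 9.92 in LNCaP (-1.19, SE 0.0605, adjusted p = 5.7e-16), a mean that joins the 2 unequal c42b controls. The highest group was LNCaP KD vehicle, at 11.34 ± 0.106 (SD, n = 2), and the lowest c42b OE-labelled with R1881, at 7.47 ± 0.104, with 5 of 15 steps between overlapping groups.

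SLITRK3 is a postsynaptic adhesion protein with leucine-rich repeats that binds the receptor phosphatase PTPRD and organizes inhibitory synapses. Of 12 promoter windows of the members, one of SLITRK3 alone held the androgen receptor half-site AGAACA, which on the strand shown reads in the other direction and is set in capitals. The 60 bases lie before the gene's start on the minus strand of GRCh38.p14, at chr3:165197156-165197215, as RefSeq gives them.
SLITRK3: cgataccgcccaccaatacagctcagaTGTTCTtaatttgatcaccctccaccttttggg
The half-site starts 79 bases before the annotated start. Searched on both strands, AGAACA stood in 14.8% of the 35116 RefSeq promoter windows of 300 bases (250 before a start and 50 after it), so its presence in 1 of 12 is a description only. RefSeq windows were at hand for 5 members and not for OPRK1, ACKR3, CAMK2N1, HOXC13 and PEG3, and the full palindrome of AGAACA and TGTTCT with 3 free bases between was in 0 of the 12, against 0.00285% of all windows.
LNCaP KD cells held SLITRK3 at 8.88 and 8.93 with R1881 against 10.11 and 10.04 with vehicle, and LNCaP OE-labelled cells at 10.39 and 10.58 against 11.42 and 11.56. R1881 samples were about a log2 unit lower in both (-1.17, SE 0.125, adjusted p = 2.42e-07 and -1.01, SE 0.125, adjusted p = 4.42e-06). In LNCaP controls the values were 10.03 and 9.68 against 10.82 and 10.57 for NT, and 10.02 and 10.17 against 11.43 and 11.39 for EV. All 16 c42b samples lay between 7.46 and 7.78, under background, with a median of 7.61, so no c42b comparison of this gene measures a change. Control cells averaged 7.58 in c42b and 10.51 in LNCaP (-2.93, SE 0.0627, adjusted p = 1.27e-25), which with c42b set to background means a level at least 6.54-fold lower in c42b. The tests of c42b against LNCaP gave 1.33 (SE 0.177, adjusted p = 8.35e-05) for the R1881 response in KD cells, 0.92 (SE 0.177, adjusted p = 0.0136) for that in OE-labelled cells and 0.79 (SE 0.125, adjusted p = 0.00113) for knockdown, and therefore set a fall in LNCaP against a gene that was not above background in c42b. In OE-labelled cells the call was lost without any of 4 of the 8 samples (adjusted p up to 0.109) and after normexp background correction (adjusted p = 0.0578). Within LNCaP, SLITRK3 averaged 9.49 in KD cells and 10.27 in NT cells, a 1.72-fold fall on knockdown (-0.78, SE 0.0887, adjusted p = 7.25e-07). LNCaP OE-labelled vehicle cells were highest, at 11.49 ± 0.0999 (SD, n = 2).

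GRB10 is an adaptor that binds the insulin and IGF1 receptors and damps their signal. The window of one of its 5 RefSeq starts held the ETS core CGGAAG, the letters that GABP and other ETS factors favour. Its 30 bases are shown from the minus strand of GRCh38.p14 at chr7:50793054-50793083, with that core in capitals.
GRB10: aggcgcggcgggCGGAAGggcgtcgcctcc
The core begins 197 bases before that start. CGGAAG was in 19.5% of all windows, and in 1 of the members' 12.
In LNCaP, GRB10 read 10.64 and 10.72 with R1881 against 11.68 and 11.50 with vehicle in KD cells, and 11.16 and 10.79 against 12.08 and 12.32 in OE-labelled cells. The falls were 1.88-fold and 2.34-fold (-0.91, SE 0.120, adjusted p = 1.23e-05 and -1.23, SE 0.120, adjusted p = 4.58e-08). The c42b values were closer together. KD cells gave 10.29 and 10.16 against 10.78 and 10.65 (-0.49, SE 0.120, adjusted p = 0.0382), and OE-labelled cells 10.40 and 10.34 against 10.72 and 10.65 (-0.32, SE 0.120, adjusted p = 0.406). Although no R1881 sample reached a vehicle sample in these 4 populations, the c42b KD call was lost without any 1 of its 4 samples (adjusted p up to 0.332), when c42b was fitted alone (adjusted p = 0.0543), under median centring (adjusted p = 0.0650), after normexp (adjusted p = 0.0668) and when adjusted over that comparison alone (adjusted p = 0.0749). The R1881 response of OE-labelled cells was 0.91 (SE 0.170, adjusted p = 0.0104) less negative in c42b than in LNCaP, a call lost without any of 4 of the 8 samples (adjusted p up to 0.145). In KD cells the difference was 0.42 (SE 0.170, adjusted p = 0.660).
Control c42b cells had 9.54 and 9.48 with R1881 against 9.85 and 9.71 with vehicle for NT, and 10.29 and 10.38 against 10.68 and 10.68 for EV. Control LNCaP cells had 10.61 and 10.52 against 11.74 and 11.81 for NT, and 10.95 and 10.91 against 12.37 and 12.49 for EV. Knockdown raised GRB10 in c42b, where it averaged 10.47 in KD cells and 9.65 in NT cells without overlap (0.83, SE 0.0851, adjusted p = 1.09e-07), but not in LNCaP, where it averaged 11.14 and 11.17 (-0.03, SE 0.0851, adjusted p = 0.964). These effects differed by 0.86 (SE 0.120, adjusted p = 0.000176). In c42b the empty vector gave a gap too, EV against NT cells differing by 0.86 (SE 0.0851, adjusted p = 2.59e-09). Control cells averaged 10.08 in c42b and 11.43 in LNCaP (-1.35, SE 0.0602, adjusted p = 2.11e-17). The array held 4 probes for GRB10. The second brightest gave 0.75 for knockdown in c42b (adjusted p = 4.51e-06), -1.06 for R1881 in LNCaP KD cells (adjusted p = 5.12e-06) and -0.49 for R1881 in c42b KD cells, without a call (adjusted p = 0.0888), while the other 2 averaged 8.13 and 7.75, near background. Group means lay between 12.43 ± 0.0868 (SD, n = 2) in LNCaP EV vehicle cells and 9.51 ± 0.0363 in c42b NT cells with R1881, and 5 of 15 steps were between overlapping groups.

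CAMK2N1 encodes a small inhibitor of calcium/calmodulin-dependent kinase II. Like PEG3, it had no called fall with R1881 in the KD or OE-labelled cells of either line. It read 11.72 and 11.55 with R1881 against 11.61 and 11.55 with vehicle in c42b KD cells, and 12.82 and 12.90 against 12.83 and 12.73 in c42b OE-labelled cells. LNCaP gave 13.69 and 13.74 against 13.72 and 13.78 for KD, and 14.24 and 14.21 against 14.36 and 14.23 for OE-labelled cells. The arms overlapped in all 4 populations. The differences were 0.06 (95% interval -0.18 to 0.29) and 0.08 (-0.15 to 0.32) in c42b, and -0.03 (-0.27 to 0.21) and -0.07 (-0.30 to 0.17) in LNCaP.
In the control cells that chose it, the NT values were 10.43 and 10.59 with R1881 against 11.08 and 10.79 with vehicle in c42b and 12.58 and 12.70 against 13.27 and 13.41 in LNCaP. The EV values were 12.69 and 12.62 against 13.10 and 13.07 in c42b and 14.16 and 14.18 against 14.53 and 14.32 in LNCaP. There the R1881 samples lay below the vehicle samples in each population, with differences of -0.42 (NT) and -0.43 (EV) in c42b and -0.70 (NT) and -0.26 (EV) in LNCaP. Their difference from the KD and OE-labelled cells was not tested, since 1 side of it chose the gene. CAMK2N1 also differed between the vectors. KD cells lay wholly above NT cells in both lines, with means of 11.61 against 10.72 in c42b (0.89, SE 0.0821, adjusted p = 1.28e-08) and 13.73 against 12.99 in LNCaP (0.75, SE 0.0821, adjusted p = 3.95e-07). EV cells lay further above the same NT cells, by 2.15 (SE 0.0821, adjusted p = 4.12e-19) in c42b and 1.31 (SE 0.0821, adjusted p = 9.22e-14) in LNCaP. Control cells averaged 11.80 in c42b and 13.64 in LNCaP (-1.85, SE 0.0581, adjusted p = 3.06e-21). The NT samples with R1881 were the lowest of their line in both lines, with 10.51 ± 0.115 (SD, n = 2) in c42b, against a highest group mean of 14.43 ± 0.152 in LNCaP EV vehicle cells, and 6 of the 15 steps joined overlapping groups.

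NCOA7 is a nuclear receptor coactivator with a TLDc domain that also associates with the vacuolar proton pump. The window of one of its 3 RefSeq starts held the ETS letters GGAAGT, which overlap CGGAAG in their shared GGAAG and which 22.8% of all windows held and 2 of the members' 12, the other being that of SLITRK3. The 60 bases are from the plus strand of GRCh38.p14 at chr6:125919116-125919175, and the capitals mark GGAAGT, 112 bases before the start.
NCOA7: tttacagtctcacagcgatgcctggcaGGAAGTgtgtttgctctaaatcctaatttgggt
R1881 lowered NCOA7 in LNCaP. It read 8.84 and 8.74 with R1881 against 9.36 and 9.48 with vehicle in KD cells (-0.63, SE 0.108, adjusted p = 0.000752), and 9.16 and 9.08 against 10.39 and 10.33 in OE-labelled cells (-1.24, SE 0.108, adjusted p = 3.61e-09). The R1881 samples of both populations lay below every vehicle sample, and the difference of 0.61 between these responses was not called (SE 0.152, adjusted p = 0.127). c42b showed no called fall, with 8.56 and 8.53 against 8.76 and 8.71 in KD cells (-0.19, SE 0.108, adjusted p = 0.726) and 9.24 and 9.29 against 9.25 and 9.11 in OE-labelled cells (0.09, SE 0.108, adjusted p = 0.930), where the arms overlapped. In OE-labelled cells the response differed between the lines by 1.33 (SE 0.152, adjusted p = 7.37e-06), and this call was kept without each of the 8 samples. In KD cells the difference was 0.43 (SE 0.152, adjusted p = 0.531).
Controls of c42b read 8.64 and 8.61 with R1881 against 8.95 and 8.94 with vehicle for NT, and 9.42 and 9.17 against 9.40 and 9.33 for EV. Controls of LNCaP read 8.91 and 8.96 against 9.86 and 9.91 for NT, and 9.04 and 9.01 against 10.40 and 10.54 for EV. The c42b EV arms overlapped and the others did not. Averages on knockdown were 8.64 in c42b KD cells and 8.79 in c42b NT cells (-0.15, SE 0.0762, adjusted p = 0.615), and 9.11 in LNCaP KD cells and 9.41 in LNCaP NT cells (-0.30, SE 0.0762, adjusted p = 0.0405). That LNCaP call was lost without any 1 of its 8 samples (adjusted p up to 0.177), under median centring (adjusted p = 0.0840), after normexp (adjusted p = 0.0517) and when LNCaP was fitted alone (adjusted p = 0.113). EV cells lay wholly above NT cells in c42b (0.55, SE 0.0762, adjusted p = 1.88e-06), and control cells averaged 9.06 in c42b and 9.58 in LNCaP (-0.52, SE 0.0539, adjusted p = 7.27e-09). LNCaP EV vehicle cells had the highest group mean, 10.47 ± 0.101 (SD, n = 2), and c42b KD cells with R1881 the lowest, 8.54 ± 0.0221, with 7 of 15 steps between overlapping groups.

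HOXC13 is a homeobox factor of the posterior body and of hair and nail. It was lower with R1881 in all 4 populations that were tested. Readings were 9.005 and 9.04 with R1881 against 9.96 and 10.03 with vehicle in c42b KD cells, and 8.64 and 8.91 against 9.70 and 9.64 in LNCaP KD cells. OE-labelled cells gave 9.16 and 9.29 against 10.04 and 9.77 in c42b, and 9.09 and 8.87 against 10.09 and 10.13 in LNCaP. No R1881 sample overlapped its vehicle samples. The differences were -0.97 (SE 0.123, adjusted p = 5.34e-06) in c42b KD cells, -0.90 (SE 0.123, adjusted p = 2.33e-05) in LNCaP KD cells, -0.68 (SE 0.123, adjusted p = 0.00137) in c42b OE-labelled cells and -1.14 (SE 0.123, adjusted p = 2.98e-07) in LNCaP OE-labelled cells. The c42b OE-labelled call was lost without replicate 1 of either arm (adjusted p = 0.0503 and 0.0851). Between the lines the responses differed by -0.08 in KD cells (95% interval -0.43 to 0.28) and by 0.45 in OE-labelled cells (0.10 to 0.81), neither of them called.
The control values were 9.36 and 9.49 with R1881 against 10.54 and 10.46 with vehicle in c42b NT cells, and 9.35 and 9.23 against 10.31 and 10.18 in c42b EV cells. In LNCaP they were 8.84 and 8.75 against 9.64 and 9.83 for NT, and 8.96 and 8.82 against 10.06 and 10.22 for EV. HOXC13 was the one gene of the 10 that was higher in c42b, with control means of 9.87 in c42b and 9.39 in LNCaP (0.48, SE 0.0615, adjusted p = 4.92e-07), although the samples overlapped. On knockdown it fell in c42b, to 9.51 in KD cells against 9.96 in NT cells (-0.45, SE 0.0869, adjusted p = 0.00269), and averaged 9.22 in KD cells and 9.26 in NT cells of LNCaP (-0.04, SE 0.0869, adjusted p = 0.956). The difference between these effects was not called (-0.41, SE 0.123, adjusted p = 0.343). The order of group means began with 10.50 ± 0.0517 (SD, n = 2) in c42b NT vehicle cells and ended with 8.78 ± 0.194 in LNCaP KD cells with R1881, and 10 of 15 steps joined overlapping groups.

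PEG3 is a zinc-finger protein expressed from the paternal allele. In LNCaP it was higher in KD than in NT cells. KD cells read 9.62 and 10.03 with R1881 against 10.15 and 9.93 with vehicle, and NT cells 8.39 and 8.59 against 9.05 and 9.01. Every KD sample lay above every NT sample, with means of 9.94 and 8.76, a 2.26-fold rise (1.18, SE 0.105, adjusted p = 6.46e-09) that was the largest rise of the 10 genes on knockdown. R1881 made no called difference in LNCaP KD cells (-0.21, SE 0.149, adjusted p = 0.816), where the arms overlapped, or in LNCaP OE-labelled cells, at 8.06 and 7.79 against 8.17 and 8.29 (-0.31, SE 0.149, adjusted p = 0.643). LNCaP EV cells read 7.68 and 8.04 against 8.17 and 8.18 and lay wholly below NT cells (-0.74, SE 0.105, adjusted p = 2.49e-06).
In c42b the gene was at background, with all 16 samples between 7.50 and 7.95 and 10 of them under 7.80. KD cells had 7.74 and 7.91 with R1881 against 7.74 and 7.92 with vehicle, and OE-labelled cells 7.67 and 7.72 against 7.70 and 7.95. NT cells had 7.80 and 7.77 against 7.85 and 7.78, and EV cells 7.50 and 7.89 against 7.62 and 7.71. No difference with R1881 was called, and the choice of PEG3 rests on LNCaP. Control means were 7.74 in c42b and 8.39 in LNCaP (-0.65, SE 0.0744, adjusted p = 5.45e-08), and with the 5 of 8 c42b samples that were under background set to it the difference is at least 0.57. Knockdown gave 0.03 (SE 0.105, adjusted p = 0.980) in c42b, and its effect differed between the lines by -1.15 (SE 0.149, adjusted p = 5.53e-05). Group means ran between 10.04 ± 0.156 (SD, n = 2) in LNCaP KD vehicle cells and 7.66 ± 0.0618 in c42b EV vehicle cells, with 11 of 15 steps between overlapping groups.

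R1881 in the KD and OE-labelled cells is the first comparison over all 10. The members were chosen in control cells, but with earlier results of these data known, so the counts below may not be free of the choice. In LNCaP KD cells 8 were called lower, namely ACKR3, SLITRK3, GRB10, HOXC13, CBLN2, OPRK1, NCOA7 and COLEC12, while of all genes tested 0.524% were called lower there. In LNCaP OE-labelled cells 7 were called lower, the same genes without COLEC12, against 0.649% of all genes. c42b gave fewer. CBLN2, HOXC13, ACKR3 and GRB10 were called lower in c42b KD cells against 0.205% of all genes, and HOXC13, ACKR3 and CBLN2 in c42b OE-labelled cells against 0.254%. No member was called higher in these 4 comparisons, in which 0.514% (c42b KD), 1.43% (LNCaP KD), 0.594% (c42b OE-labelled) and 1.09% (LNCaP OE-labelled) of all genes were. The median difference of the 10 genes was -0.37 in c42b KD cells and -0.83 in LNCaP KD cells, -0.16 in c42b OE-labelled cells and -0.999 in LNCaP OE-labelled cells, and that of all genes lay between -0.02 and 0.00. With 2 samples on a side, groups often do not overlap. R1881 and vehicle samples were apart in this way for 8 members in c42b KD cells (37.9% of all genes), 8 in LNCaP KD cells (41.3%), 6 in c42b OE-labelled cells (38.9%) and 9 in LNCaP OE-labelled cells (40%), with SLITRK3 higher with R1881 in c42b KD cells, under background. In the control cells, where the choice was made, the median was -0.40 in c42b and -1.02 in LNCaP, and 6 and 10 of the genes passed the call that 0.609% and 1.32% of all genes passed, from which nothing is read.

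**Figure D2:**
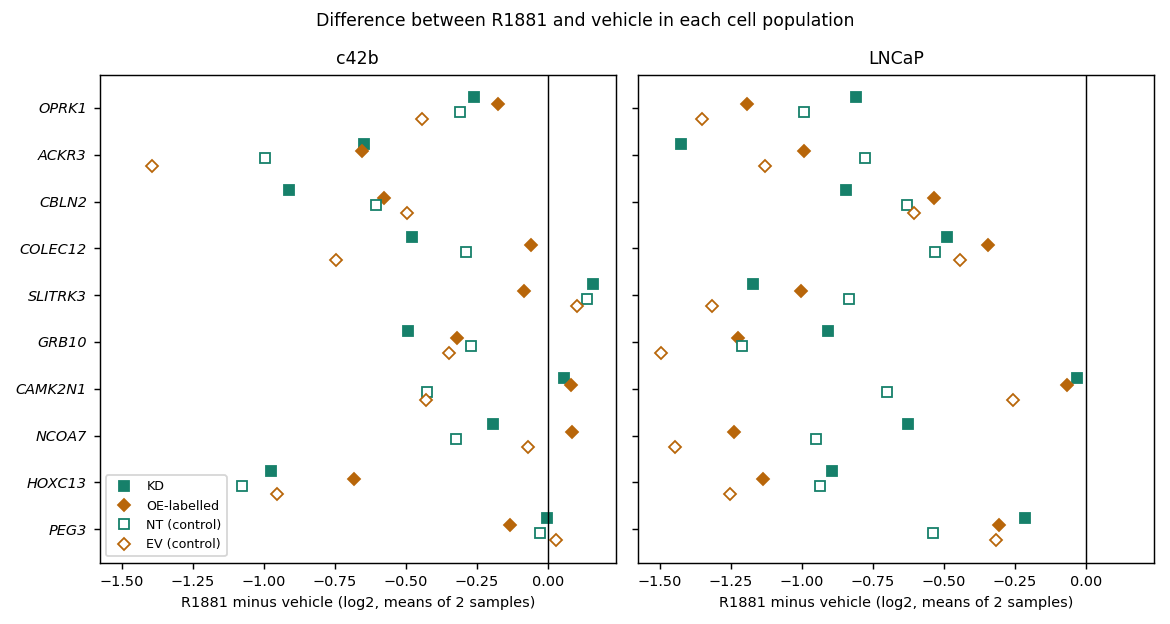
Difference in log2 intensity between R1881 and vehicle (horizontal axis, means of 2 samples each) for the 10 genes (vertical axis) in c42b (left) and LNCaP (right). Filled symbols are KD and OE-labelled cells, open symbols the NT and EV control cells whose values chose the genes. For CAMK2N1 the filled symbols lie at 0.06 and 0.08 in c42b and at -0.03 and -0.07 in LNCaP, right of the open ones.

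Whether the response differed between the lines was tested in those same cells. In OE-labelled cells it did for NCOA7, OPRK1, SLITRK3 and GRB10, each closer to 0 or higher in c42b than in LNCaP by 1.33, 1.02, 0.92 and 0.91, while 0.244% of all genes were called. The OPRK1 call (1.02, SE 0.186, adjusted p = 0.00744) was lost without LNCaP OE-labelled R1881 replicate 2 (adjusted p = 0.0501) or vehicle replicate 1 (adjusted p = 0.0687). In KD cells it did for SLITRK3 alone, against 0.165% of all genes. ACKR3 came next with 0.78 (SE 0.179, adjusted p = 0.0695), and was called without LNCaP KD R1881 replicate 1 (adjusted p = 0.0242). Set against each other within a line, KD and OE-labelled cells differed in no member's response by limma. This test called 0.00998% of all genes in c42b and 0.0948% in LNCaP, and at an unadjusted p under 0.05 it gave 1 member and 5.04% of all genes in c42b, and 3 members and 4.76% of all genes in LNCaP.

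KD and NT cells differed for 6 members in c42b, where 3.25% of all genes were called, and for 8 in LNCaP, where 2.46% were. In c42b 5 rose (CAMK2N1, GRB10, COLEC12, ACKR3 and CBLN2) and HOXC13 fell. In LNCaP 4 rose (PEG3, CBLN2, CAMK2N1 and COLEC12) and 4 fell (OPRK1, SLITRK3, ACKR3 and NCOA7). CAMK2N1, COLEC12 and CBLN2 rose in both lines, and ACKR3 rose in c42b and fell in LNCaP. The median over the 10 genes was 0.23 in c42b and -0.04 in LNCaP, against 0.00 for all genes in both. A difference between the lines in the effect of knockdown was called for ACKR3, GRB10, SLITRK3, OPRK1 and PEG3, and for 1.09% of all genes. KD and NT samples did not overlap for CAMK2N1 and GRB10 in c42b, where 10.7% of all genes did not, and for CAMK2N1 and PEG3 in LNCaP, where 7.15% did not. Of the genes above background, 17.9% in c42b and 11.4% in LNCaP did not overlap. OE-labelled against EV cells gave no called member by limma in either line, where 0.15% (c42b) and 0.0449% (LNCaP) of all genes were called. At an unadjusted p under 0.05 there were 2 members in each line, among 5.79% of all genes in c42b and 4.38% in LNCaP. With both arms pooled, as in these tests, the largest difference was 0.29 for CBLN2 in LNCaP (95% interval 0.11 to 0.46). Split by arm, some differences were larger, and several in c42b had opposite signs. OE-labelled minus EV cells of c42b gave -0.55 with vehicle and 0.13 with R1881 for COLEC12. In the same order ACKR3 gave -0.33 and 0.40, CAMK2N1 -0.30 and 0.21, and HOXC13 -0.34 and -0.07. SLITRK3 in LNCaP gave 0.08 and 0.39. These differences within an arm were not tested. A difference between the lines in the pooled OE-labelled against EV effect was called for no member and for 0.0349% of all genes. There, 1 member and 5.35% of all genes had an unadjusted p under 0.05.

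**Figure D3:**
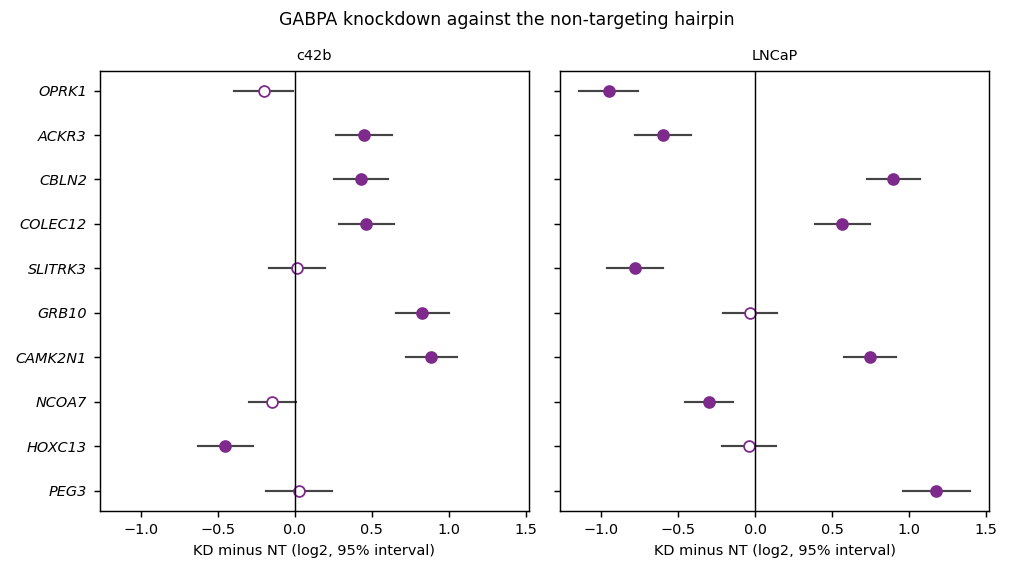
Difference in log2 intensity between KD and NT cells (horizontal axis) for the 10 genes (vertical axis) in c42b (left) and LNCaP (right), with 4 samples on each side. Points are the fitted differences and bars their 95% intervals, and filled points passed an adjusted p of 0.05. ACKR3 is at 0.45 in c42b and at -0.60 in LNCaP.

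The control populations themselves differed. EV against NT cells gave 5 called members in c42b and 8 in LNCaP, in comparisons that called 19% and 12.8% of all genes. Of the genes above background, as the members were, 35.1% were called in c42b and 23.6% in LNCaP. CAMK2N1, GRB10 and NCOA7 were higher in EV cells of both lines, and ACKR3 was higher in EV cells of c42b and lower in those of LNCaP (-0.37, SE 0.0895, adjusted p = 0.00292). In LNCaP COLEC12, OPRK1 (0.60, SE 0.0931, adjusted p = 1.17e-05) and SLITRK3 (0.48, SE 0.0887, adjusted p = 0.000143) were also higher and PEG3 lower, and in c42b CBLN2 was lower. These comparisons and those of knockdown share the NT samples. Between the lines, control cells differed for all 10 members, for 27.4% of all genes and for 50% of the genes above background. The same control samples chose the members, so the choice may bear on the comparisons of this paragraph. Only HOXC13 was higher in c42b, and the other 9 were lower, by 0.52 (NCOA7) to 1.85 (CAMK2N1) on the log2 scale and by at least 2.71 for SLITRK3, with a median over the 10 of -1.25 and 0.00 for all genes. The 8 control samples of c42b did not overlap the 8 of LNCaP for OPRK1, COLEC12 and SLITRK3, for 7.86% of all genes and for 15% of those above background.

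**Figure D4:**
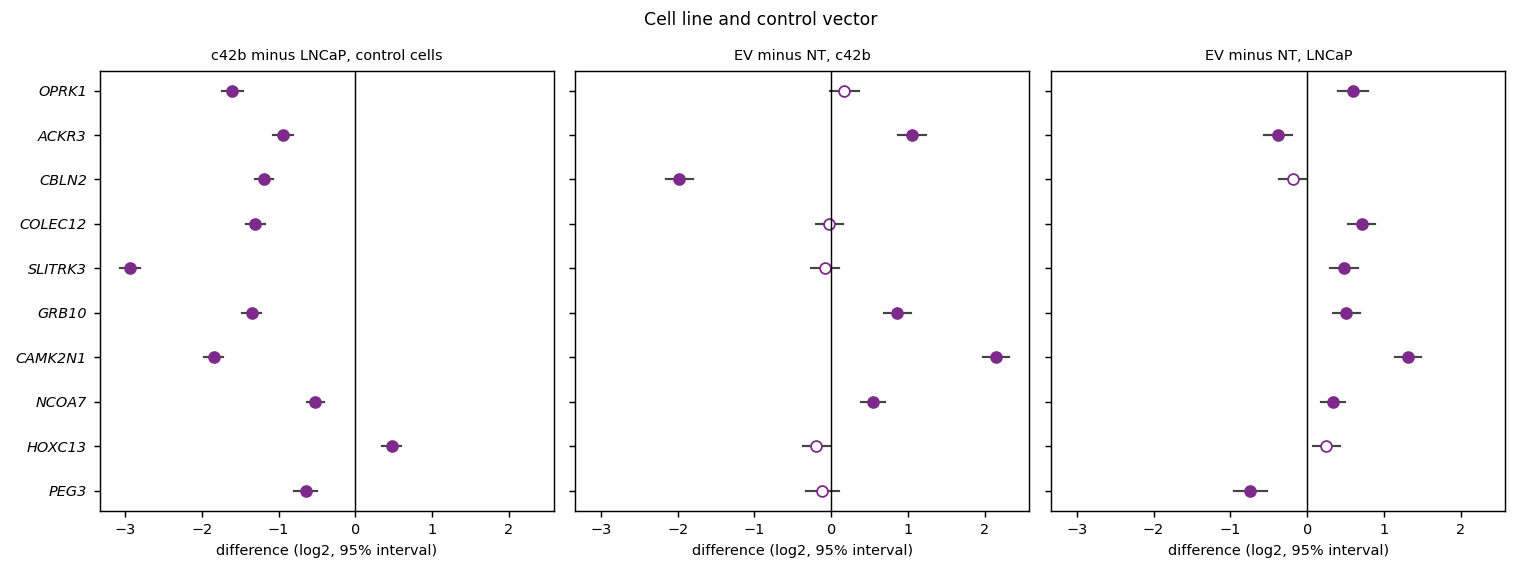
Differences in log2 intensity (horizontal axis) for the 10 genes (vertical axis) between c42b and LNCaP control cells (left, 8 samples a side), and between EV and NT cells of c42b (middle) and LNCaP (right, 4 samples a side). Bars are 95% intervals and filled points passed an adjusted p of 0.05. SLITRK3 lies at a measured -2.93 between the lines, with all c42b samples under background, and CAMK2N1 at 2.15 between the c42b controls.

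On knockdown, some partners and relatives of the members were called, in comparisons that called 3.25% of all genes in c42b and 2.46% in LNCaP. Of 13 measured genes around the opioid receptors, ARRB1, an arrestin, rose on knockdown in c42b by 0.42 (SE 0.0929, adjusted p = 0.0143) and GNAI3, an inhibitory G-protein subunit, fell by 0.34 (SE 0.0883, adjusted p = 0.0483), and 0 changed in LNCaP. Of 10 genes around ACKR3, CXCL12, the chemokine it binds, rose on knockdown in c42b by 0.56 (SE 0.0770, adjusted p = 2.23e-05). ACKR3 and its ligand were thus both higher in c42b KD than in c42b NT cells. Of 14 genes around GRB10, PIK3R1, the regulatory subunit of PI3-kinase, fell on knockdown in LNCaP, with a difference of -0.59 (SE 0.0875, adjusted p = 7.16e-05), and 0 changed in c42b. PTPRF, a receptor phosphatase and 1 of 16 measured synapse organizers, gave 0.34 (SE 0.0864, adjusted p = 0.0437) in c42b, and SNRPN, 1 of 18 imprinted genes, 0.38 (SE 0.0836, adjusted p = 0.0113). Of the 8 CaMKII genes, 9 nuclear receptor coactivators, 11 scavenger receptors and collectins and 12 HOX genes, 0 changed on knockdown in either line. The medians of these 9 lists lay between -0.04 and 0.12 on knockdown, and the median of all genes was 0.00 in both lines.
Among the HOX genes, the neighbour HOXC8 and the paralog HOXB13, named after their values were seen, were lower with R1881 in c42b KD cells (-0.51, SE 0.129, adjusted p = 0.0475 and -0.66, SE 0.152, adjusted p = 0.0225), and HOXB13 in LNCaP KD cells (-0.69, SE 0.152, adjusted p = 0.0161). HOXC9 was lower in LNCaP OE-labelled cells (-0.85, SE 0.139, adjusted p = 0.000383). Of 13 other genes that the literature reports to fall with androgen, UGT2B15 and UGT2B17, which conjugate androgens, were lower with R1881 in LNCaP OE-labelled cells (UGT2B15 at -0.75, SE 0.136, adjusted p = 0.00160 and UGT2B17 at -0.64), DDC was lower in LNCaP KD cells (-0.52), and 0 were called in c42b KD or OE-labelled cells. The cytokine receptor LIFR, with a mean of 7.87 near background, was higher instead in LNCaP KD and OE-labelled cells (0.86 and 0.84), as was the TGF-beta co-receptor TGFBR3 in LNCaP KD cells (0.65, SE 0.120, adjusted p = 0.00173). On knockdown DDC, which makes dopamine and serotonin, rose by 1.42 (SE 0.0768, adjusted p = 7.61e-14) in c42b and by 0.33 (SE 0.0768, adjusted p = 0.0190) in LNCaP, and PRUNE2 fell in LNCaP, with a difference of -1.23 (SE 0.0887, adjusted p = 5.77e-11). Of 19 androgen-induced genes, 10 were higher with R1881 in c42b KD cells, 16 in LNCaP KD cells, 11 in c42b OE-labelled cells and 15 in LNCaP OE-labelled cells, led by PMEPA1 (3.04 in LNCaP OE-labelled cells), FKBP5 (2.93 in LNCaP KD cells) and SLC45A3 (2.73 in LNCaP OE-labelled cells). Whether the lack of a called fall of CAMK2N1 in the KD and OE-labelled cells is related to these genes was not tested.

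Most pairs of members were positively correlated. Over the 16 group means the median Pearson r of the 45 pairs was 0.557, with 42 pairs positive, over the 8 LNCaP groups 0.512 with 35 positive, and over the 8 c42b groups 0.12 with 25 positive. The points share arrays, cell lines and R1881 arms, and the genes were chosen for a shared fall, so these are descriptions. Among the 9644 genes above background with complete values, those most like a member over the 16 group means were SNRK (r = 0.971) and STRBP (r = 0.968) for OPRK1, PPP2R2A (r = 0.933) and FAM217B (r = 0.929) for ACKR3, PROM2 (r = 0.982) and GUSBP2 (r = 0.960) for COLEC12, RFX5 (r = 0.968) and PRXL2B (r = 0.957) for CBLN2, and PURA (r = 0.989) and TMEM181 (r = 0.982) for SLITRK3. For the others they were GNRH1 (r = 0.975) and LRRN1 (r = 0.962) for GRB10, IDS (r = 0.976) and H2BC21 (r = 0.970) for CAMK2N1, PRKAA1 (r = 0.933) and ATP6V1H (r = 0.929) for NCOA7, LTN1 (r = 0.962) and GFOD1 (r = 0.887) for HOXC13, and MMP7 (r = 0.959) and TAP1 (r = 0.921) for PEG3. No other member was among these nearest genes.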

How the data were processed

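The authors hybridized 36 Human HT-12 version 4 bead arrays, 4 of them repeat arrays, and deposited bead-level intensity values per probe, summarised after spatial artefact removal with BASH and HULK in beadarray, without detection p-values. A second table deposited by the authors held log2 quantile-normalized values of the same arrays. Here intensities were put on the log2 scale and quantile normalized, repeat arrays were averaged, and 1 mean per group was fitted to the 32 samples with limma 3.58.1 (lmFit and eBayes, R 4.3.3, 16 residual degrees of freedom). The result differed from the deposited log2 table by a median of 0.000159. Benjamini-Hochberg adjustment ran over all 47231 probes, jointly over the comparisons of a family (6 main, 4 for R1881 in KD and OE-labelled cells, 3 for lines and vectors, 6 interactions), at an adjusted p of 0.05. Of several probes for a gene the one with the highest mean was used, and 9674 genes (48.3%) lay above background. R1881 in control cells was not tested, because it chose the members. The members and gene lists were chosen with earlier results of these data known, and the genes named are all 10 members, every list gene called in the comparisons described, and the nearest genes by correlation.

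Array medians ran from 178 to 225 intensity units, and the number of arrays limits the precision: the median standard error over all probes was 0.0969 for knockdown and 0.137 for R1881 in KD and OE-labelled cells. Of the intensities 94 were missing, 92 of them in c42b KD R1881 replicate 1. The study's methods name triplicates, while 2 replicates per group were analysed here. The fitting code was tested on simulated data. The alternatives tried were median centring, normexp background correction, the brighter probes only, separate fits for each line, the deposited log2 table, no repeat arrays, a call by any probe of a gene, adjustment within each comparison, an adjusted p of 0.1, a replicate block and leaving out each sample. Promoter windows were those of RefSeq (GRCh38.p14), searched with Python 3.11.15.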

Additional observations from a re-analysis of the deposited data

Results flagged for a closer look

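The effects of knockdown and of R1881 differed between the lines, by a test of the difference itself in limma (c42b minus LNCaP, on the log2 scale), for several members. For KD against NT cells the difference was 0.748 for OPRK1 (adjusted p = 0.00489), 1.05 for ACKR3 (adjusted p = 1.79e-05), 0.861 for GRB10 (adjusted p = 0.000176), 0.795 for SLITRK3 (adjusted p = 0.00113) and -1.15 for PEG3 (adjusted p = 5.53e-05). ACKR3 and GRB10 were above background in every sample of both lines, whereas 16 of 16 c42b samples of SLITRK3, 10 of 16 of PEG3 and 5 of 16 of OPRK1 were under it. For R1881 against vehicle in KD cells the difference was 1.33 for SLITRK3 (adjusted p = 8.35e-05). For R1881 against vehicle in OE-labelled cells it was 1.33 for NCOA7 (adjusted p = 7.37e-06), 1.02 for OPRK1 (adjusted p = 0.00744), 0.922 for SLITRK3 (adjusted p = 0.0136) and 0.905 for GRB10 (adjusted p = 0.0104). NCOA7 and GRB10 were above background in all samples of both lines.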

How the results depend on the processing

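No called member difference changed sign under the alternatives run, and of 1480 values from settings other than leaving out a sample 14 lost their call and 11 gained one. Using the brighter probes only, 1 member (CBLN2) was called between OE-labelled and EV cells in LNCaP, 2 had an R1881 response in KD cells that differed between the lines (SLITRK3 and ACKR3), and 1 (NCOA7) differed between KD and OE-labelled cells of LNCaP in its response. CBLN2 was then also called for the difference in knockdown effect between the lines (adjusted p = 0.0252, and 0.0454 with adjustment within that comparison), COLEC12 for R1881 in c42b KD cells (adjusted p = 0.00929), and HOXC13 between EV and NT cells of c42b (adjusted p = 0.0499) and LNCaP (adjusted p = 0.0114). Fewer probes enter the adjustment there. At an adjusted p of 0.1 the count for the R1881 response in KD cells was also 2. Leaving out each sample in turn, the count of members called was 5 to 6 for knockdown in c42b and 7 to 8 in LNCaP, 2 to 4 for R1881 in c42b KD cells and 7 to 8 in LNCaP KD cells, 1 to 3 in c42b OE-labelled cells and 6 to 7 in LNCaP OE-labelled cells, 8 to 9 for EV against NT in LNCaP, and 1 to 2 (KD) and 2 to 4 (OE-labelled) for the difference in R1881 response between the lines. HOXC13 (adjusted p = 0.055 between LNCaP EV and NT cells) was called without LNCaP NT vehicle replicate 2 or EV vehicle replicate 1 (adjusted p = 0.0406 and 0.0463).

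Replicate numbers showed little pairing of the samples. Between vectors the correlations of same-numbered deviations ran from -0.139 to 0.184 and 1 of 8 exceeded 0.1. Between the R1881 and vehicle groups of a vector, 8 such correlations ran from -0.101 to 0.202. With a replicate block, 7 members in place of 8 were called lower with R1881 in LNCaP KD cells, COLEC12 being lost (adjusted p = 0.0552), and no other member's call changed. Values under the background of 7.80 limit what can be said of SLITRK3 and PEG3 in c42b.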
